A study of Homo sapiens with 60 samples.

Results

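The addition of OL9-119 to topotecan was followed in clone G6, a TDP1-knockout clone of HEK293A, a line derived from human embryonic kidney cells. The libraries were chosen by their titles: 4 of G6 cells given 100 nM topotecan with 0.1% DMSO, and 4 of G6 cells given 100 nM topotecan with 5 µM OL9-119 (the combination, for which the labels name no DMSO), together 8 of the 60 libraries of the series. Every cell in the comparison carried the CRISPR/Cas9 knockout of TDP1, and G6 is 1 clone, so that what belongs to the knockout and what belongs to this clone cannot be told apart. G6 cells given 0.1% DMSO, or 5 µM OL9-119 in 0.1% DMSO, were used for comparison, with 4 libraries each. Treatment lasted 5 to 5.5 hours. The labels call the replicates biological and do not say more, so the p-values measure the spread between these samples. Wild-type cells were not analysed here.

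Topotecan traps topoisomerase I on DNA, and TDP1 is the enzyme that removes trapped topoisomerase I from DNA ends. OL9-119 was developed as an inhibitor of TDP1. When cells lack amino acids, load their endoplasmic reticulum with unfolded protein or carry stressed mitochondria, kinases phosphorylate the translation factor eIF2alpha. General translation then slows while the transcription factor ATF4 is made, and ATF4 switches on genes for amino acid supply and for stress signalling through CHOP (DDIT3). This circuit is called the integrated stress response. Mitochondria transcribe their own small circular genome from both strands as long precursors, and the tRNAs that punctuate these precursors are cut out to release the mRNAs.

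The promoters of 3 genes that were higher in the combination and of 1 gene that was lower are shown because they hold a motif of a stress factor. Each is the 250 bases before the gene's first listed start site in RefSeq (GRCh38.p14), printed on the gene's own strand. Capitals mark TGATGNAA, the composite element bound by ATF4 with C/EBP proteins, on either strand in the first 3, and the heat shock element in HSPA8 (3 units of 5 bases that alternate GAANN and TTCNN). They lie at chr15:40953221-40953470 on the plus strand, chr7:97872409-97872658 on the minus strand, chr16:56931892-56932141 on the plus strand and chr11:123062137-123062386 on the minus strand.
CHAC1: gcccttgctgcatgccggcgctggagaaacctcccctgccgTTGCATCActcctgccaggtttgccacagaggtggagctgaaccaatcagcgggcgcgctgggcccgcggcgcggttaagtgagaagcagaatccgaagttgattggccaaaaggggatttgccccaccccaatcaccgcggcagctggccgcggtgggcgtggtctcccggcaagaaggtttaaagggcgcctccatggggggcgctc
ASNS: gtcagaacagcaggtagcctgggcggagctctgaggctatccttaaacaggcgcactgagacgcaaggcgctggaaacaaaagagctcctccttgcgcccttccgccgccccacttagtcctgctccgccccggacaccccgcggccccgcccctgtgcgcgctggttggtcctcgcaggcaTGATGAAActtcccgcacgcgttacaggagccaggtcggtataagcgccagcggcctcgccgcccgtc
HERPUD1: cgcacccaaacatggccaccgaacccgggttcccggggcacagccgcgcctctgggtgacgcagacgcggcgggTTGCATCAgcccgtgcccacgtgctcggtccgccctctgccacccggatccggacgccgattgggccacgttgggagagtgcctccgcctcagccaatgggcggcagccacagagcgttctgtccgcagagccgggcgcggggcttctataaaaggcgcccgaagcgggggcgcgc
HSPA8: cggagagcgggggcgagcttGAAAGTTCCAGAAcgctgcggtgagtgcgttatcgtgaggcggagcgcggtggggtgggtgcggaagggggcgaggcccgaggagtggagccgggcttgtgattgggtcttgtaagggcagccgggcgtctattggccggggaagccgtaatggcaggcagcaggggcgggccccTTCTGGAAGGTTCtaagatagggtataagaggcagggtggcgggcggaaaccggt
The first capital base is 209 bases before the start site in CHAC1, 68 in ASNS and 176 in HERPUD1, and HSPA8 holds 2 elements, beginning 230 and 55 bases before it. Over the window from 250 bases before to 50 bases after that start, TGATGNAA was in 4 of the 23 higher genes with a promoter entry (17.4%; CARS1 is the other one) and in none of the 8 lower genes with an entry. It was in 1.7% of the 12174 tested genes with an entry and in 3.67% of all 27305 genes with an entry. The heat shock element was in HSPA8 alone among these promoters, and in 0.296% of tested genes with an entry. DDIT3 and TRIB3 had no match to TGATGNAA, which says only that these letters are not in that window. A match is a description of the letters and does not show binding.

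The 8 libraries held 6.93 M to 20.9 M counts each (M, 1e6). At a common depth of 4.5 M counts the topotecan libraries detected 21420 to 22499 genes, whereas combination replicate 1 stood apart with 18800 (the other 7 libraries, 21420 to 22767). Its title code stands next to those of the other 3 G6 libraries of low detection (replicate 1 of the untreated, DMSO and OL9-119 groups), and that of topotecan replicate 1 does not. Results are therefore also given without these 4 libraries. All 12 markers of the HEK293 line had counts. Summed levels were low for 10 fibroblast markers (31.7 to 43.1 CPM with topotecan, 30.2 to 50 CPM in the combination) and 10 blood cell markers (3.78 to 7.90 and 5.17 to 7.79 CPM). They were also low for 8 hepatocyte markers (0.669 to 2.74 and 1.70 to 2.91 CPM), with the hepatocyte gene TTR at 0 in all 8 libraries. Every other marker of these lists had counts in some library. The marker sums are scaled to the library total alone, and the CPM of single genes also by a TMM factor. In bulk RNA, fewer cells of a kind and less RNA per cell cannot be told apart. TDP1 RNA, the targeted gene, ran at 32.7, 39.2, 31.5 and 26 CPM with DMSO, 25.7, 30.5, 32.2 and 31.2 CPM with OL9-119, 25.1, 22.1, 23.1 and 23.9 CPM with topotecan and 27, 29.8, 22.8 and 21.5 CPM in the combination. The groups with and without OL9-119 overlapped on topotecan, and an RNA level does not show whether the protein was lost. TOP1, the target of topotecan, had a log2 change of -0.01 ± 0.13 (SE) on adding OL9-119.

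Few genes changed when OL9-119 was added to topotecan. Those that rose included 9 of 20 regulators of the integrated stress response (CHAC1, DDIT3 and TRIB3 among them), 4 of 19 enzymes of amino acid and one-carbon metabolism (ASNS, CTH, PCK2 and PSAT1) and 3 of 20 aminoacyl-tRNA synthetases. Those that fell included 6 of 23 mitochondrial RNAs tested, the chaperones HSPA8 and HSPA1B and the secreted matricellular proteins CCN1 and CCN2. Of 17271 genes tested with edgeR's quasi-likelihood test, 45 passed a Benjamini-Hochberg adjusted p of 0.05 (0.261% of genes tested), 28 higher (0.162%) and 17 lower (0.0984%). The median log2 change of all genes was 0.00. In all 45 the 4 combination libraries did not overlap the 4 topotecan libraries, as in 920 of all genes tested (5.33%). DESeq2 called 94 genes, all 45 among them. With a replicate block in the fit edgeR called 260 genes (1.51% of genes tested), again with all 45 among them. Without the libraries of low detection edgeR called 61 genes (0.368% of 16567), 41 of the 45 among them, and EGR1, ORMDL2, SFPQ and VEGFA were the ones lost. Leaving out any 1 of the 4 topotecan libraries, or combination replicate 1, 2 or 3, took the number of calls to between 24 and 28.

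**Figure D1:**
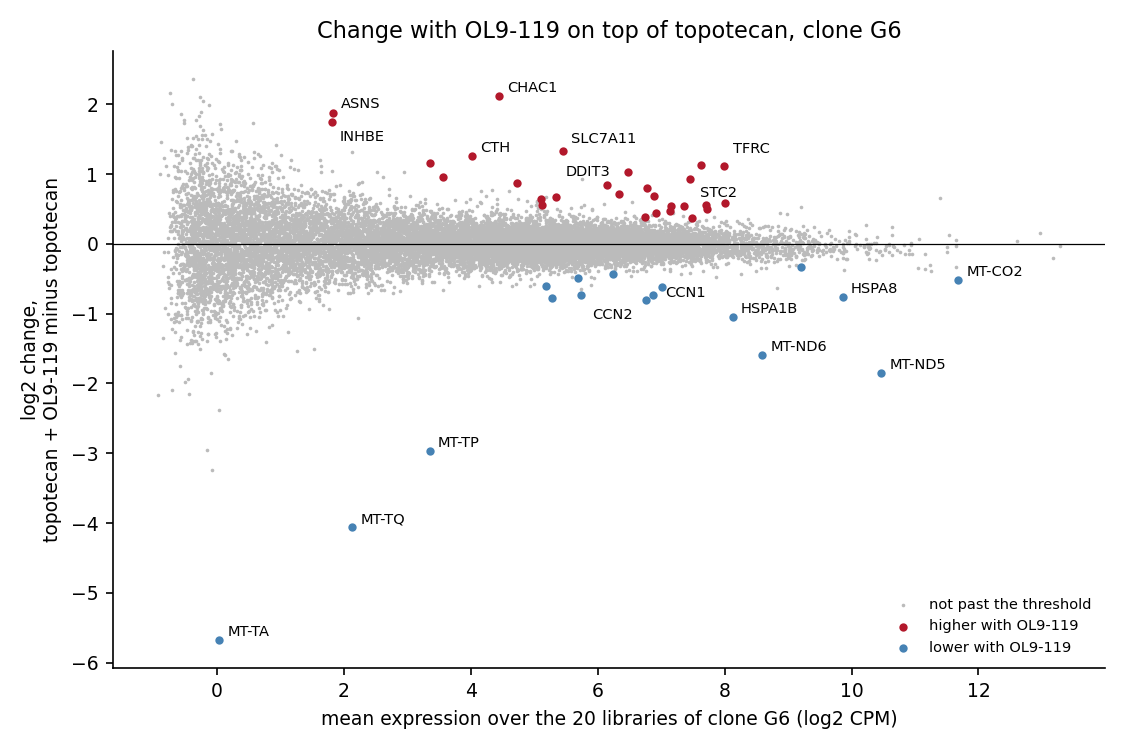
Log2 change on adding OL9-119 to topotecan in clone G6 (vertical axis) against mean expression in log2 CPM over the 20 libraries of the clone (horizontal axis), 1 point a gene. Red and blue points are the 28 higher and 17 lower genes past an edgeR adjusted p of 0.05, and the lowest points are mitochondrial RNAs.

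The regulators of the integrated stress response had the highest median among the nuclear gene lists. Of 20 regulators tested, 9 rose (0.162% of all genes tested) and none fell, while 11 missed the threshold. Their median log2 change was 0.71 against 0.00 for all genes, and 14 of them did not overlap between the groups on the higher side (2.78% of all genes tested). CHAC1, an enzyme that degrades glutathione and a target of ATF4 and CHOP (ENSG00000128965; chr15:40952962-40956519 on hg38), was at 8.45, 8.28, 11.8 and 11.8 CPM in the topotecan libraries and 29.3, 41.8, 51.5 and 53.7 CPM in the combination libraries. The lowest combination library lay above the highest topotecan library. The change was 4.35-fold (log2 2.12 ± 0.30, SE; edgeR adjusted p = 0.000529).

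DDIT3, which encodes CHOP itself (ENSG00000175197; chr12:57516588-57521737), was at 65.6, 61.9, 62.6 and 67 CPM with topotecan and 135, 136, 123.2 and 130.6 CPM in the combination, 2 tight sets of values far from each other. Its log2 change was 1.03 ± 0.11 (edgeR adjusted p = 1.82e-05). TRIB3, a pseudokinase induced by CHOP that acts back on ATF4, was at 79.7, 79.8, 77.1 and 89.5 CPM and 142, 137, 144 and 146 CPM, again without overlap, a log2 change of 0.80 ± 0.12 (edgeR adjusted p = 0.00118). STC2, a secreted glycoprotein induced by this response, rose from 115.039, 128.4, 132 and 133 CPM to 239, 253, 238 and 241 CPM (log2 0.93 ± 0.09; edgeR adjusted p = 2.48e-06). Its values varied little within each group, and the gap between the groups was wide.

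Of the other regulators that rose, DDIT4, which restrains the growth kinase complex mTORC1, had a log2 change of 1.13 ± 0.24, and its libraries were spread more widely, 84.1, 139, 121.2 and 148 CPM with topotecan and 203, 291, 244 and 342 CPM in the combination. The bZIP factors that pair with ATF4 and CHOP rose together: JDP2 by log2 0.96 ± 0.20, CEBPB by 0.84 ± 0.16 and CEBPG by 0.49 ± 0.08. VLDLR, a lipoprotein receptor, rose by log2 0.67 ± 0.12. The 9 regulators that passed had edgeR adjusted p-values no larger than 0.0364, that of DDIT4.

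ATF4 itself was at 615, 525, 577 and 584 CPM with topotecan and 697, 709.6, 659 and 686 CPM in the combination. The groups did not overlap, but the log2 change of 0.26 ± 0.08 did not pass (edgeR adjusted p = 0.352). GDF15, a secreted stress cytokine, had a log2 change of 0.93 ± 0.24 and did not pass either (edgeR adjusted p = 0.176), with 29.2, 31.8, 38.6 and 43.5 CPM against 55.1, 68, 67.4 and 83.5 CPM. The stress genes ATF3 (-0.05), ATF5 (-0.10), PPP1R15A (0.20), which encodes a phosphatase subunit that reverses eIF2alpha phosphorylation, and EIF4EBP1 (0.24), a brake on cap-dependent translation, gave log2 changes nearer 0, with overlapping libraries. None of the 14 eIF2alpha kinases, phosphatases and their partners passed (median 0.01). Without the low-detection libraries 11 of 19 tested regulators rose, with a median of 0.72.

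**Figure D2:**
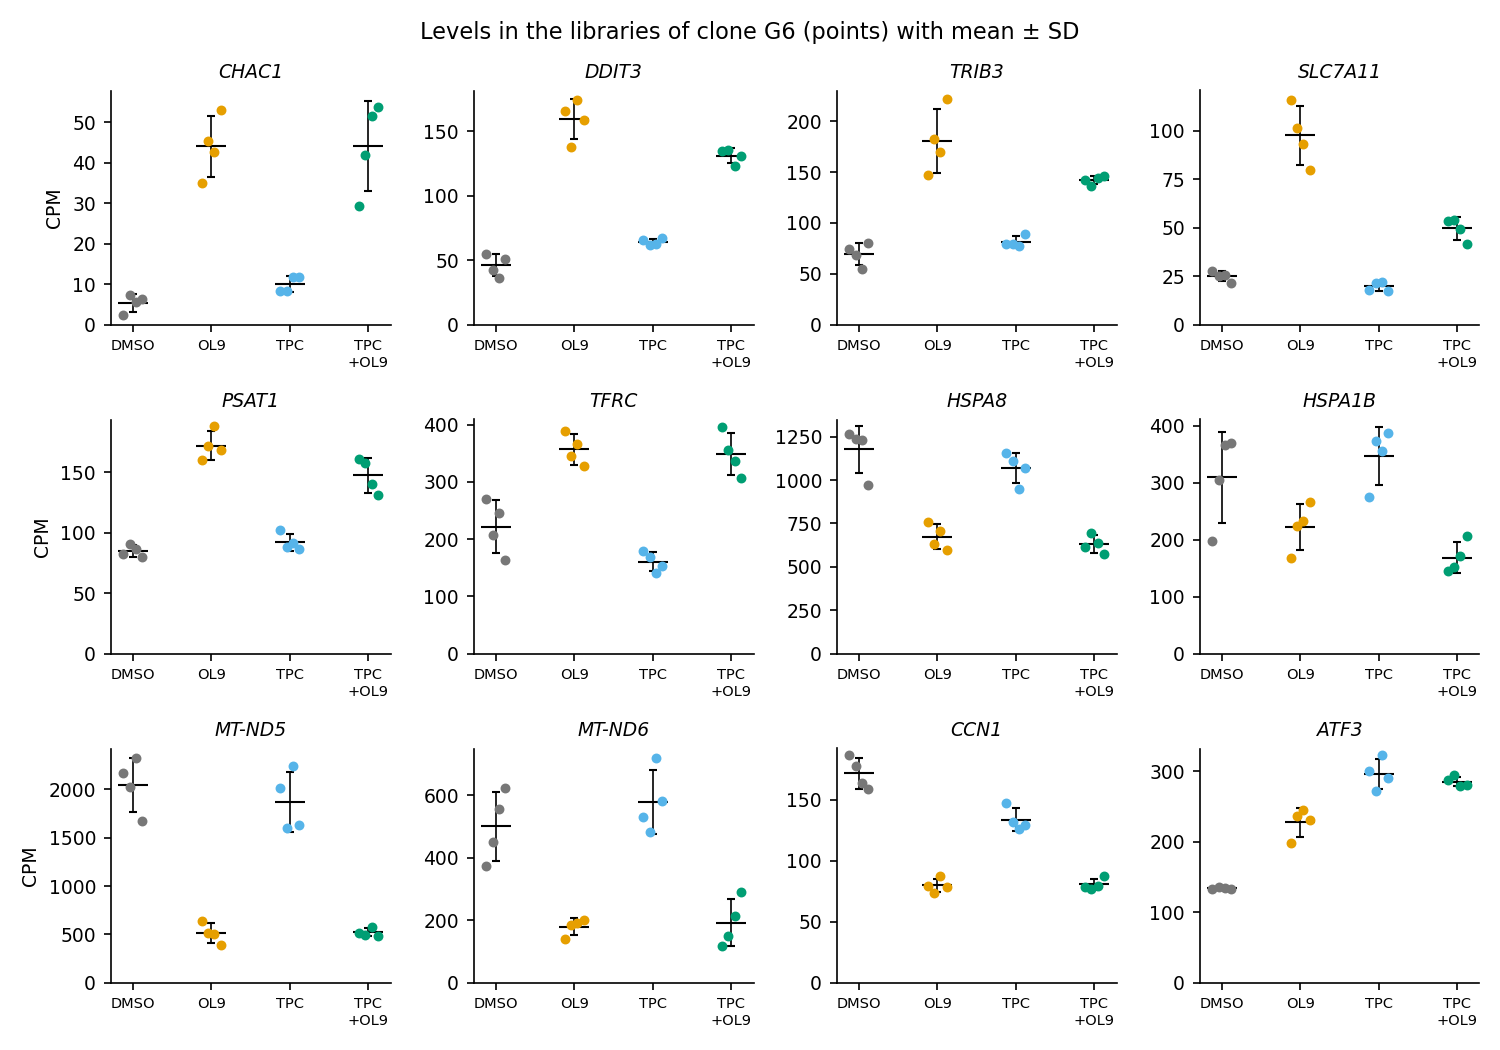
CPM of 12 genes in each of 4 libraries (points) with the mean and SD (black), in G6 cells given DMSO, OL9-119 (OL9), topotecan (TPC) or both (TPC+OL9), each axis starting at 0. For CHAC1, DDIT3, TRIB3, SLC7A11, PSAT1 and TFRC the TPC+OL9 points lie above all TPC points, for HSPA8, HSPA1B, MT-ND5, MT-ND6 and CCN1 they lie below, and for ATF3 the groups overlap.

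Among 15 amino acid transporters, 2 rose (0.162% of all genes tested) and none fell (0.0984%), while 10 were above 0 and 5 below (median 0.18). SLC7A11, the cystine importer that feeds glutathione synthesis, was at 17.8, 21.6, 22.2 and 17.4 CPM with topotecan and 53.4, 53.9, 49.5 and 41.6 CPM in the combination. Every combination library held more than any topotecan library, and the log2 change was 1.32 ± 0.16 (edgeR adjusted p = 0.000103). SLC6A9, a glycine transporter, rose by log2 1.16 ± 0.23 (edgeR adjusted p = 0.0258) from 6.45, 7.91, 6.1 and 7.67 CPM to 11.9, 13.4, 17 and 21.2 CPM. SLC38A2, which imports small neutral amino acids, was higher in each combination library but did not pass (log2 0.53 ± 0.12; edgeR adjusted p = 0.0575). The leucine exchanger chain SLC7A5 (0.31) and its partner SLC3A2 (0.12) had libraries that overlapped.

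Of 19 enzymes of serine, glycine, asparagine, proline and one-carbon metabolism, 4 rose and none fell, against the same shares of all genes, with a median of 0.24. ASNS, asparagine synthetase, was low, at 2.15, 1.92, 2 and 1.68 CPM with topotecan (107 counts over the 4 libraries) and 8.8, 7.98, 5.11 and 6.43 CPM in the combination (359 counts). The ratio of pooled counts was 3.82 (95% exact interval 3.07 to 4.79, counting error only), and the log2 change was 1.88 ± 0.36 (edgeR adjusted p = 0.0187). CTH, which makes cysteine from cystathionine, went from 10.3, 10.3, 11.8 and 12.3 CPM to 32.5, 25.8, 27.3 and 21.6 CPM, more than doubling in the mean (2.39-fold; edgeR adjusted p = 0.000382). PCK2, the mitochondrial enzyme that makes phosphoenolpyruvate, rose by log2 0.87 ± 0.13 (edgeR adjusted p = 0.00153). PSAT1, the second enzyme of serine synthesis, rose by 0.68 ± 0.11 (edgeR adjusted p = 0.00281), from 102.003, 88.4, 91.4 and 86.2 CPM to 161, 158, 140.2 and 130.8 CPM. PHGDH, the first enzyme of that route, had overlapping libraries (log2 0.24 ± 0.14), while PSPH, the last, did not overlap but did not pass (log2 0.64 ± 0.17; edgeR adjusted p = 0.248). The one-carbon enzymes MTHFD2 (log2 0.38) and ALDH1L2 (log2 0.76) likewise did not overlap and did not pass. Without the low-detection libraries 6 enzymes of this list rose.

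Of 20 cytosolic aminoacyl-tRNA synthetases, which charge tRNAs with amino acids, 3 rose (0.162% of all genes tested), none fell, and 9 did not overlap on the higher side (2.78%), with a median of 0.19 and 6 members below 0. The 3 that rose were GARS1 for glycine (log2 0.54 ± 0.11), CARS1 for cysteine (0.47 ± 0.10) and YARS1 for tyrosine (0.37 ± 0.08). YARS1 was the tightest, with 164, 162, 156 and 163 CPM against 206, 210.4, 212 and 205 CPM (edgeR adjusted p = 0.0322). The synthetases for alanine, AARS1 (0.34), asparagine, NARS1 (0.28), and methionine, MARS1 (0.25), were higher in every combination library without passing, and EPRS1 (0.23) overlapped. With the low-detection libraries left out, 5 of the 20 rose (0.368% of all genes passed in that fit).

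Among 25 genes of the unfolded protein response of the endoplasmic reticulum 2 rose (0.162% of all genes tested), none fell (0.0984%), and the median was 0.02. HERPUD1, a membrane protein of the pathway that degrades misfolded proteins from this compartment, was at 60.9, 65.9, 64.6 and 68.2 CPM with topotecan and 103.2, 110.9, 106.6 and 104.4 CPM in the combination (log2 0.71 ± 0.09; edgeR adjusted p = 0.000103). XBP1, a transcription factor of the same response, rose by log2 0.58 ± 0.09 (edgeR adjusted p = 0.00224). HSPA5, the chaperone known as BiP that is the usual gauge of this response, did not pass (log2 0.24 ± 0.08; edgeR adjusted p = 0.751), although its libraries did not overlap.

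TFRC, the transferrin receptor that takes up iron, was at 179, 169, 141 and 154 CPM with topotecan and 396, 355, 336 and 307 CPM in the combination. The groups were far apart, with a 2.17-fold change (log2 1.12 ± 0.12; edgeR adjusted p = 1.82e-05). The iron storage chains FTH1 (log2 -0.01) and FTL (-0.09) had overlapping libraries. VEGFA, the angiogenic growth factor (log2 0.54 ± 0.11), was the 1 gene that rose among 29 hypoxia and glycolysis genes (0.162% of all genes tested rose). The median of that list was -0.10, and VEGFA no longer passed without the low-detection libraries. The higher genes not on any list or outside the naming rule, named after their values were seen, were INHBE, an activin chain (log2 1.74 ± 0.33), LRATD2 (0.65 ± 0.14), TSC22D3, a leucine zipper protein known as a glucocorticoid target (0.56 ± 0.11), ID4, an inhibitor of helix-loop-helix factors (0.55 ± 0.08), ARHGEF2, an activator of RHOA (0.44 ± 0.09), and FAF1, a ubiquitin-binding adaptor (0.38 ± 0.08).

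Mitochondrial RNAs gave the deepest falls. MT-ND5, a complex I subunit (ENSG00000198786; chrM:12337-14148, plus strand), was at 2013, 1602, 2238 and 1630.4 CPM with topotecan and 518, 498, 579 and 487 CPM in the combination. The highest combination library held less than the lowest topotecan library, the ratio of topotecan to combination was 3.59, and the log2 change was -1.85 ± 0.14 (edgeR adjusted p = 8.89e-08). MT-ND6, the complex I subunit that alone among the mRNAs is read from the other strand (ENSG00000198695; chrM:14149-14673, minus strand), was at 529, 483, 719 and 582 CPM and 117.3, 149.6, 212 and 289.6 CPM, again without overlap (log2 -1.59 ± 0.24; edgeR adjusted p = 0.00118). MT-CO2, a complex IV subunit, fell by less, from 4099, 3254, 4097 and 3444 CPM to 2263, 2641, 2873 and 2599 CPM (log2 -0.52 ± 0.10; edgeR adjusted p = 0.019).

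All 13 mitochondrial mRNAs had a log2 change below 0 (median -0.35), 6 of them without overlap (2.55% of all genes tested), and these 3 passed (0.0984% of all genes tested fell). MT-ND3 (-0.64 ± 0.15) and MT-ND4L (-0.48 ± 0.11) came next and did not pass, and MT-ND1 (-0.13 ± 0.14), MT-ND2 (-0.15 ± 0.16) and MT-CO1 (-0.21 ± 0.12) overlapped between the groups. Neighbours on the same strand thus differed: MT-ND4 had a log2 change of -0.39 ± 0.12, MT-ND5, which follows it, -1.85 ± 0.14, and MT-CYB, the next plus-strand mRNA, -0.30 ± 0.12. MT-ATP8 and MT-ATP6, and MT-ND4L and MT-ND4, overlap in the annotation, so their counts may be divided by the counting rule. Without the low-detection libraries 5 of the mRNAs fell, with a median of -0.41.

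Among the tRNAs, MT-TP was at 15.2, 14.7, 11.9 and 12.2 CPM with topotecan and 2.73, 0.599, 1.67 and 1.69 CPM in the combination (765 against 88 counts; log2 -2.97 ± 0.31; edgeR adjusted p = 1.44e-05). MT-TQ held 379 counts over the topotecan libraries and 20 over the combination libraries, a ratio of 0.0601 (95% exact interval 0.0363 to 0.0941, counting error only), with an edgeR adjusted p of 0.000864. MT-TA held 93 counts and 1 count, a ratio of 0.0122 (interval 0.000307 to 0.0699), with an edgeR adjusted p of 0.000418. All 3 are read from the minus strand, and in each the groups did not overlap. RNA this short is captured only in part by poly(A) selection, so these values are levels of whatever polyadenylated or precursor RNA reached the libraries. The rRNAs did not follow. MT-RNR1 was at 2558, 1848, 2230.0 and 1998 CPM with topotecan and 3877, 3447, 3487 and 2804 CPM in the combination. It was higher without overlap but not past the threshold (log2 0.66 ± 0.15; edgeR adjusted p = 0.0715). MT-RNR2 had a log2 change of -0.03 ± 0.14. Of 10 tRNAs and rRNAs tested 3 fell (0.0984% of all genes tested) and none rose. With the low-detection libraries left out, 5 of 9 tested fell and 1 rose (0.368% of all genes passed in that fit).

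By annotated strand, all 6 minus-strand genes tested were below 0 and did not overlap (2.55% of all genes tested on the lower side), 4 of them passing (0.0984% of all genes tested fell), with a median log2 change of -3.10. Of 17 plus-strand genes, 15 were below 0, 2 passed, and the median was -0.34. Strand and kind of RNA cannot be told apart in these medians, since 5 of the 6 minus-strand genes are tRNAs, against 3 of the 17 plus-strand genes. Of these 3, MT-TT had a log2 change of -2.96 ± 0.71 without overlap and did not pass (edgeR adjusted p = 0.11). MT-TI (-0.78) and MT-TW (0.14) overlapped. Among the mRNAs, minus-strand MT-ND6 (-1.59 ± 0.24) fell no further than plus-strand MT-ND5 (-1.85 ± 0.14). Of the 37 mitochondrial genes 23 had counts enough to be tested. The strand used in counting is not given in the sources used here, and nuclear copies of mitochondrial DNA can share its reads.

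**Figure D3:**
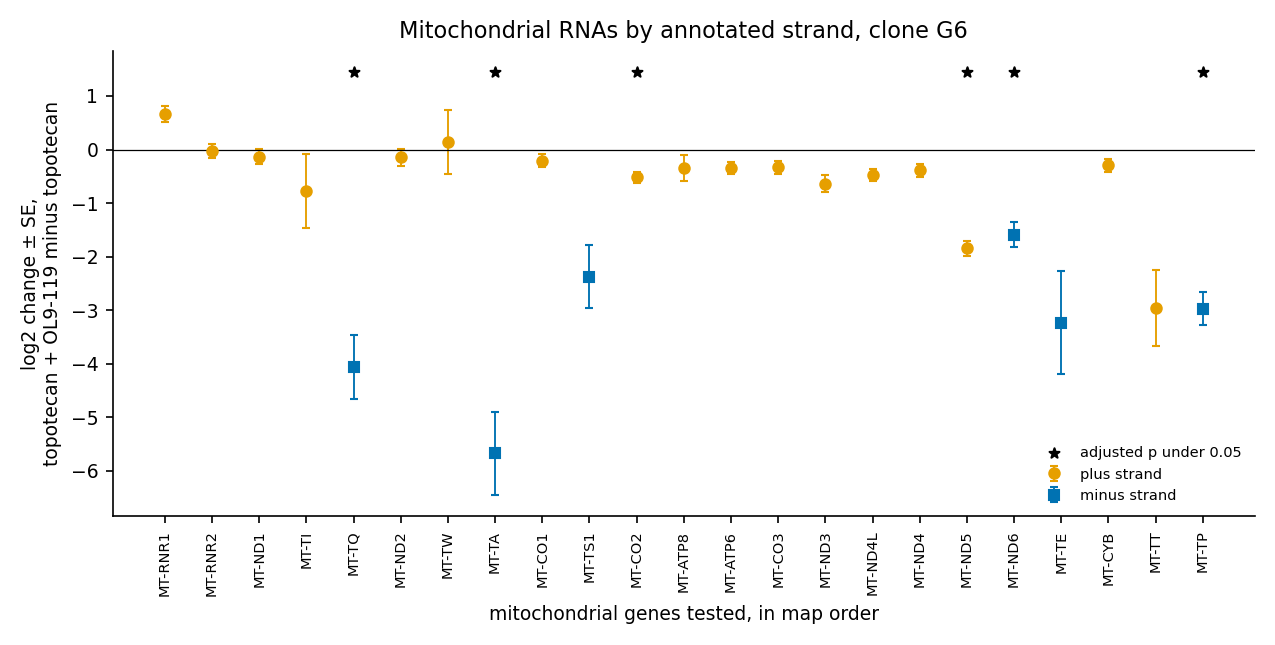
Log2 change on adding OL9-119 to topotecan in clone G6, with its SE (vertical axis), for the 23 mitochondrial genes tested, in map order along the horizontal axis. Squares are minus-strand and circles plus-strand genes, and stars mark the 6 past an edgeR adjusted p of 0.05; the squares lie between -5.67 and -1.59.

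The share of counts on mitochondrial genes was 3.73% ± 0.28 (SD, n = 4) in the combination and 4.29% ± 0.595 (SD, n = 4) with topotecan, a difference of -0.56 percentage points that did not pass (exact permutation test, two-sided, p = 0.257). Without the rRNAs the shares were 2.44% ± 0.16 and 3.13% ± 0.451, a difference of -0.689 points (exact permutation p = 0.0286, the smallest that 4 against 4 libraries can give). Nuclear genes of the same organelle moved less in the median. Of 35 nuclear-encoded respiratory chain subunits none passed and 32 were below 0 (median -0.14). On the lower side 5 of them did not overlap between the groups (2.55% of all genes tested). Of 29 genes of mitochondrial transcription and RNA processing none passed (median -0.02). Of all 17271 genes tested 8779 were above 0, but some other lists also leaned down. Of cytosolic ribosomal proteins 29 of 32 were below 0 (median -0.08), and of proteasome genes 24 of 30 (median -0.10). In these 2 lists 0 and 2 genes did not overlap on the lower side. The mitochondrial RNA polymerase POLRMT (log2 -0.03 ± 0.26) and the DNA packaging factor TFAM (0.04 ± 0.16) had overlapping libraries. ATP5MK, a small subunit of ATP synthase that is not on these lists, fell (log2 -0.49 ± 0.11; edgeR adjusted p = 0.0436).

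HSPA8, the constitutive cytosolic HSP70 chaperone (ENSG00000109971; chr11:123057489-123063230), was at 1154, 1108, 949 and 1070.5 CPM with topotecan and 616, 695, 637 and 575 CPM in the combination. The values of the groups were well apart, and the log2 change was -0.76 ± 0.09 (edgeR adjusted p = 0.000103). HSPA1B, a heat-inducible HSP70, was at 274, 373, 355 and 388 CPM and 146, 152, 171 and 206 CPM (log2 -1.04 ± 0.21; edgeR adjusted p = 0.0287). Its near-identical copy HSPA1A held 95 counts over the topotecan libraries and 78 over the combination libraries, and how reads were divided between the copies is uncertain. These were the 2 that fell of 15 HSP70 family genes (0.0984% of all genes tested fell), none rose, and the median was -0.04. The mitochondrial HSPA9 (log2 0.12) had overlapping libraries.

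Of 27 genes for HSP90, HSP40, small heat shock proteins and chaperonins none passed, 23 were below 0 and the median was -0.12. Of these 27 genes 7 did not overlap on the lower side (2.55% of all genes tested). As given above, the ribosomal protein and proteasome lists leaned down too, with 0 and 2 genes that did not overlap on that side. DNAJB1, an HSP40 that works with HSP70, was lower in each combination library and missed the threshold (log2 -0.42 ± 0.09; edgeR adjusted p = 0.0622). HSP90AA1 (log2 -0.04 ± 0.11) and the heat shock factor HSF1 (-0.16 ± 0.26) had overlapping libraries.

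CCN1 and CCN2 are secreted matrix proteins and standard targets of the coactivator YAP with TEAD factors. They were the 2 that fell of 20 YAP-TEAD genes (0.0984% of all genes tested fell), none rose, and the median was -0.07. CCN1 was at 148, 132, 126.4 and 129.1 CPM with topotecan and 78.6, 77.1, 79.2 and 87.7 CPM in the combination (log2 -0.73 ± 0.10; edgeR adjusted p = 0.000426), and CCN2 at 126.8, 115.1, 107.5 and 102.3 CPM and 56.6, 66.6, 69.6 and 66.2 CPM (log2 -0.80 ± 0.14; edgeR adjusted p = 0.00561). In both, every combination library was below every topotecan library.

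Further lower genes were EGR1, an immediate early transcription factor (log2 -0.78 ± 0.17), TXNIP, an inhibitor of thioredoxin and glucose uptake (-0.73 ± 0.14), DYNLL1, a dynein light chain (-0.62 ± 0.10), ORMDL2, a regulator of sphingolipid synthesis (-0.60 ± 0.12), and TNFRSF10D, a decoy receptor for the death ligand TRAIL (-0.44 ± 0.09). DYNLL1 was at 167, 157, 153 and 154 CPM with topotecan and 87.5, 116.8, 106.4 and 100.6 CPM in the combination (edgeR adjusted p = 0.00429). EGR1 was at 71.8, 46.9, 79.4 and 63.1 CPM and 37.7, 29.1, 45.2 and 39.4 CPM, so that its nearest libraries almost touched (edgeR adjusted p = 0.0436). SFPQ, a nuclear RNA-binding protein named after its values were seen, fell by the least (log2 -0.33 ± 0.07).

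**Figure D4:**
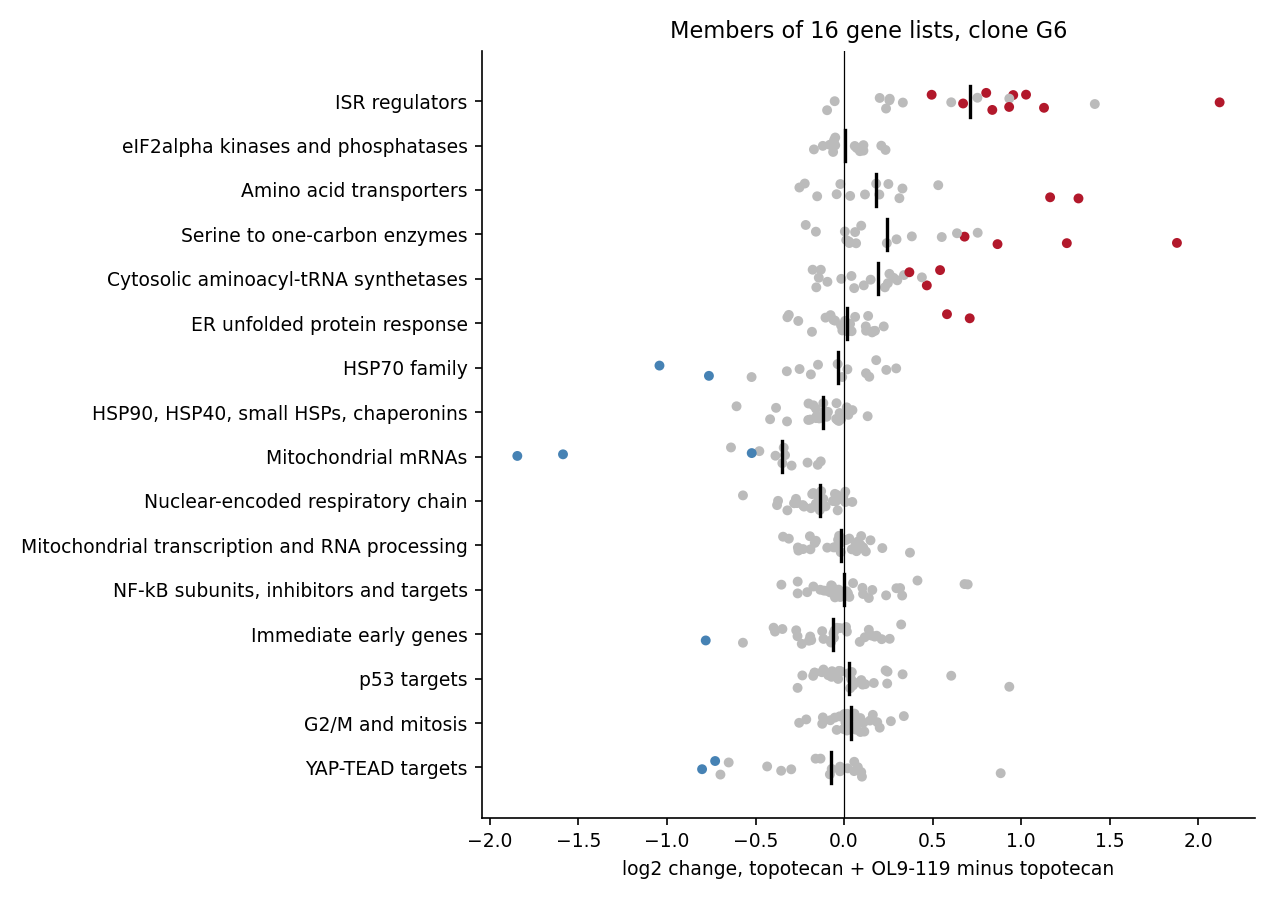
Log2 change on adding OL9-119 to topotecan (horizontal axis) of the tested members of 16 gene lists (rows), 1 point a gene, with the list median as a black bar. Red and blue points passed an edgeR adjusted p of 0.05, and the median of the ISR regulators (genes of the integrated stress response) is 0.71; points are spread vertically only to keep them apart.

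The lists with the most calls for topotecan itself, those of NF-kB and of mitosis, had no gene that passed when OL9-119 was added. Single genes outside them did: FAF1, which topotecan lowered (log2 -1.08 ± 0.08), rose by 0.38 ± 0.08 on adding OL9-119, and EGR1, which topotecan raised (log2 0.83 ± 0.17), changed by -0.78 ± 0.17. Other genes that rose on adding OL9-119 had moved either way with topotecan. It raised DDIT3 (log2 0.47 ± 0.11), STC2 (0.33 ± 0.09), XBP1 (0.33 ± 0.09) and HERPUD1 (0.31 ± 0.09), and lowered TFRC (-0.46 ± 0.12) and ID4 (-0.29 ± 0.08). These genes are examples, and the directions were not counted over all called genes. The change from DMSO to topotecan uses the same topotecan libraries, so its values are only set beside those of the combination. Of 30 genes of the NF-kB pathway, which drives inflammatory transcription, 19 were higher with topotecan than with DMSO (median 1.00; topotecan changed 6.39% of all genes tested, with 1.41% higher), and on adding OL9-119 none passed (median 0.00). TNFAIP3, a feedback inhibitor of NF-kB, was at 25.3, 29.9, 25.7 and 31.2 CPM with DMSO, 154, 130.5, 151 and 137 CPM with topotecan and 145, 127.5, 136 and 126.3 CPM in the combination. CXCL8, a neutrophil chemokine, had means of 19.2 ± 6.03, 194 ± 35.6 and 162 ± 65.6 CPM (SD, n = 4) in the same order. The last 2 groups overlapped in both genes. NFKBIA, the inhibitor of NF-kB, was higher in every combination library and did not pass (log2 0.32 ± 0.12; edgeR adjusted p = 0.977), and RELB overlapped (log2 -0.17 ± 0.23).

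Of 33 genes of mitosis, 23 were lower with topotecan than with DMSO (median -0.64; 4.97% of all genes tested were lower), and none passed on adding OL9-119 (median 0.04). PLK1 (log2 0.19 ± 0.15), AURKA (0.07 ± 0.08) and CCNB1 (0.00 ± 0.07), which drive entry into mitosis, all overlapped. None of 39 genes of replication and the G1 to S transition (median -0.07), 39 of topoisomerase I lesion and break repair (0.01) or 29 of homologous recombination (0.03) passed. Of 30 p53 targets none passed (median 0.03): CDKN1A, the cell cycle inhibitor, had a log2 change of -0.17 ± 0.10 and MDM2, the ligase for p53, 0.11 ± 0.14. GDF15 (0.93 ± 0.24) and SESN2 (0.61 ± 0.14), also on this list, did not overlap on the higher side (2.78% of all genes tested). On the lower side 2 members did not overlap (2.55%). With the low-detection libraries left out, 2 of the 30 rose (0.368% of all genes passed in that fit). For 25 NRF2 targets of the oxidative stress response 1 rose and 1 fell, SLC7A11 and TXNIP (0.162% and 0.0984% of all genes tested), with a median of -0.03. The early genes JUN (log2 -0.20 ± 0.11), FOS (-0.07 ± 0.15) and MYC (0.15 ± 0.13) overlapped, and EGR1 was the 1 that passed of 32 (0.261% of all genes tested passed). A p that misses the threshold does not show that a gene stayed the same.

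The shift of transcripts by gene length was small. Median log2 changes on adding OL9-119 ran from -0.08 for genes spanning under 10 kb to 0.08 for genes over 200 kb. The difference between the median log2 CPM of protein-coding genes over 200 kb and under 10 kb was -0.302 ± 0.232 (SD, n = 4) in the combination libraries and -0.462 ± 0.127 (SD, n = 4) in the topotecan libraries, which did not pass (exact permutation test, two-sided, p = 0.286). Without combination replicate 1, the library of low detection, the difference between the groups was 0.0571 in place of 0.16.

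Most of the 45 genes called on topotecan were also called for OL9-119 without it, in libraries that the comparison on topotecan does not use. OL9-119 against DMSO in G6 called 119 genes (0.689% of those tested; 0.457% higher), and 38 of the 45 genes called on topotecan were among them, which is 84.4% of the 45 and 31.9% of the 119. All 45 had the same sign in both settings. Over all 17271 genes tested, Pearson's r between the log2 changes was 0.18 and Spearman's rho 0.19, and over the 12577 whose mean log2 CPM reached 2 they were 0.40 and 0.30. Genes are not independent of each other. MT-ND5 was at 2166, 2027, 2325 and 1671 CPM with DMSO and 638, 519, 502 and 392 CPM with OL9-119 (log2 -2.0 ± 0.14), against -1.85 ± 0.14 on topotecan. HSPA8 fell by a log2 change near that on topotecan (-0.80 ± 0.09 and -0.76 ± 0.09). The groups separated as cleanly for both genes in each setting.

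For 23 of the 28 higher genes the log2 change was smaller on topotecan than without it, and for 7 of the 17 lower genes. CHAC1 was at 2.32, 7.27, 5.5 and 6.3 CPM with DMSO and 35, 45.3, 42.7 and 53.1 CPM with OL9-119, a log2 change of 3.05 ± 0.32 against 2.12 ± 0.30 on topotecan. DDIT3 was at 54.9, 42.6, 36.1 and 51 CPM and 166, 138, 174 and 159 CPM, 1.78 ± 0.11 against 1.03 ± 0.11. TFRC was among the exceptions, with 0.69 ± 0.12 against 1.12 ± 0.12. These differences between differences did not pass: the edgeR interaction was -0.75 ± 0.16 for DDIT3 (adjusted p = 0.542) and -0.93 ± 0.42 for CHAC1 (adjusted p = 0.999).

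ATF3, a stress-induced bZIP factor, was the 1 gene of 17271 whose interaction passed (0.00579%). It was at 133, 136, 135 and 133 CPM with DMSO, 198, 236, 245 and 231 CPM with OL9-119, 299.7, 272, 323 and 290.2 CPM with topotecan and 288, 294, 279 and 280.3 CPM with both. OL9-119 raised it from the DMSO level, topotecan raised it further, and with both it lay within the range of topotecan alone. The interaction was log2 -0.81 ± 0.11 (edgeR adjusted p = 0.00422). JUN had the same arrangement of means, 253 ± 50, 398 ± 38.2, 659 ± 34.1 and 575 ± 65.2 CPM (SD, n = 4), and its interaction of -0.85 ± 0.16 did not pass (edgeR adjusted p = 0.186).

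**Figure D5:**
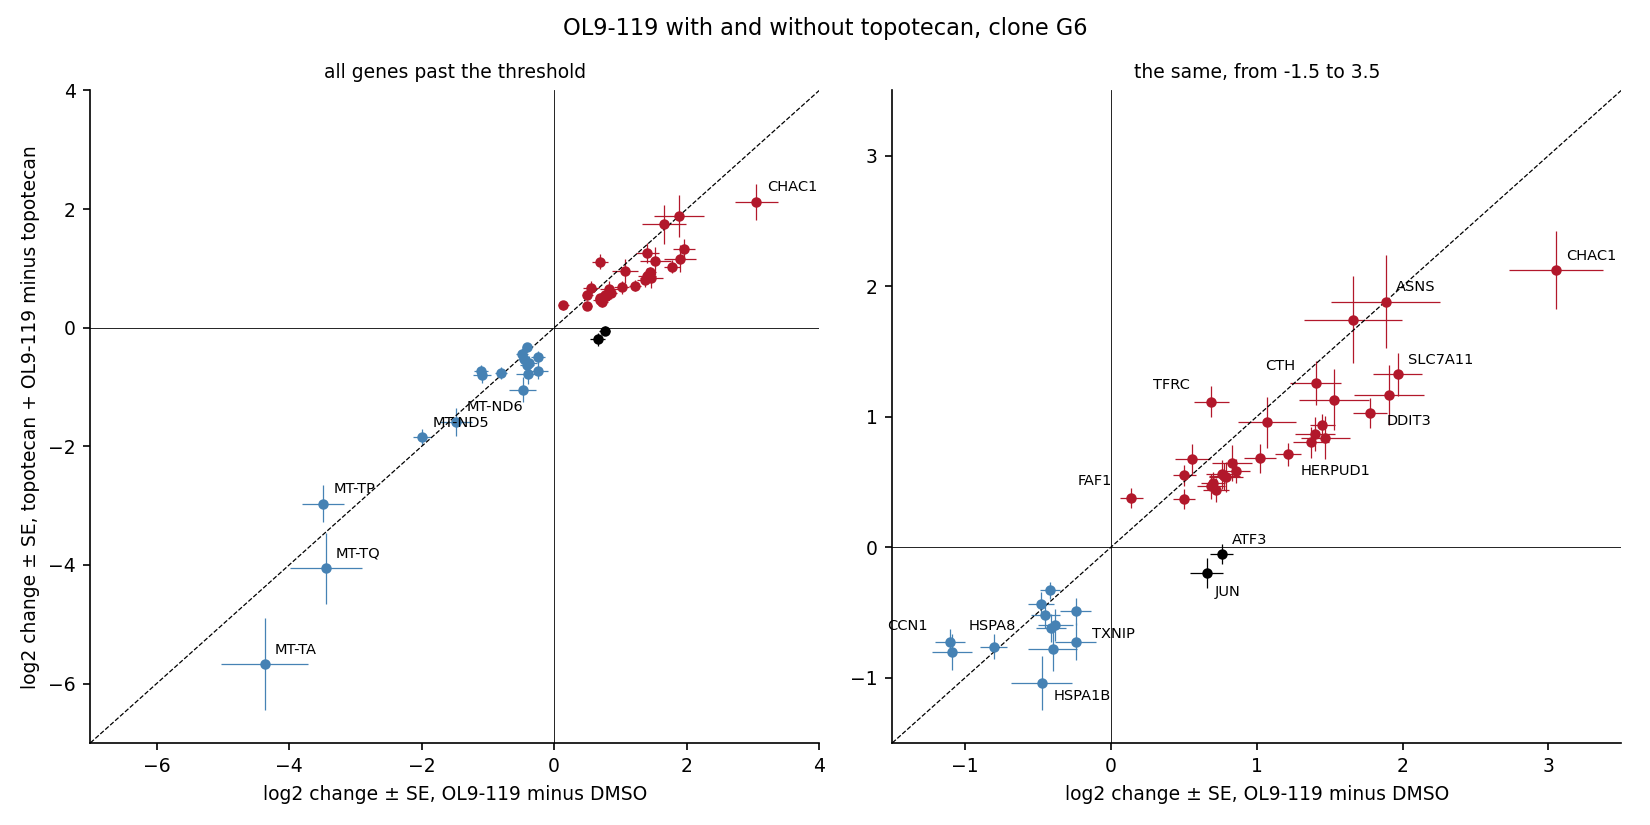
Log2 change with its SE for OL9-119 on topotecan (vertical axis) against OL9-119 without topotecan (horizontal axis) in clone G6, for the 45 genes past an edgeR adjusted p of 0.05 on topotecan (red higher, blue lower) and ATF3 and JUN (black). The right panel enlarges the centre, the dashed line marks equal changes, and most red points lie under it.

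The same comparison was made in the other TDP1-knockout clones, C6 and F7, whose libraries are separate. All 45 genes had the same sign in C6 and in F7, and 40 passed in C6 (1.63% of 18985 genes passed there) and 39 in F7 (0.922%), in an edgeR fit of all 60 libraries that called 0.543% of genes in G6. Low detection weighs more on C6. At the common depth its combination replicates 1, 2 and 4 detected 19345, 17454 and 18820 genes, and its topotecan replicates 1 and 4 18757 and 18522. None of the F7 libraries compared was low. CHAC1 had log2 changes of 1.99 ± 0.27 in C6 and 2.14 ± 0.27 in F7, and MT-ND5 of -1.55 ± 0.15 and -2.02 ± 0.15. MT-RNR1 had log2 changes of 1.41 ± 0.13 and 1.05 ± 0.13. In G6 it missed the threshold in the fit of 20 libraries. It passed in G6 in this fit of 60 (log2 0.66 ± 0.13; edgeR adjusted p = 0.0016). INHBE differed more in value, with 0.74 ± 0.32 in C6 and 1.59 ± 0.35 in F7 against 1.74 ± 0.33 in G6. No gene of 18985 passed a test of the difference between G6 and the mean of C6 and F7 with edgeR (491 at an unadjusted p under 0.05) or with DESeq2 (0).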

How the data were processed

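Poly(A) RNA was sequenced from libraries made with a directional kit, per the labels' protocols. The deposited file gives raw counts as whole numbers for each Ensembl gene, with no normalization by the authors. FastQC 0.11.9, STAR 2.7.8, Picard 2.26.6 and hg38 come from the submitters' processing notes. For the counting tool and its strand setting, the entry is: not given in the sources used here. Of 58395 gene identifiers 58275 were in GENCODE 29, used for positions.

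CPM values are the counts scaled by library total and TMM factor, except for the marker sums, which use the library total alone. The test was edgeR 4.0.16 (R 4.3.3) quasi-likelihood with TMM and filterByExpr, fitted on the 20 libraries of G6 with 1 mean per group and no replicate block, with Benjamini-Hochberg adjustment over all tested genes at 0.05. DESeq2 1.42.0, other scalings, filters, sets of libraries and left-out replicates were alternatives. Low detection means under 20000 genes at 4.5 M counts, as in replicate 1 of the untreated, DMSO, OL9-119 and combination groups of G6. What the codes that open the titles stand for is not stated, and those of these 4 libraries are neighbours, a set that the topotecan group lacks. The fit was also run on simulated counts with known fold changes. They were drawn independently for each library, with no replicate effect and no library of low detection. That run therefore does not show how the fit handles these features. Genes were named by a rule: the 15 highest and 15 lowest changes among passing genes of mean log2 CPM 2 or more, up to 6 passing genes a list, and a set of key genes. Other list members that did not pass were named after their values were seen. Members and gene lists were chosen with earlier results of these data known, and lists carry counts and medians with no test. No 2 libraries of a group agreed within sampling noise (chi-square over its degrees of freedom, 3.19 to 48.0). Intervals cover counting error only.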

Additional observations from a re-analysis of the deposited data

Results flagged for a closer look

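Within a group of 4 libraries, the gap of the most distant library to its neighbour exceeded Dixon's 95% limit in 6 of 140 gene-by-group sets checked, and chance gives about 1 in 20. With topotecan the lowest PCK2 library was at 17.5 CPM (the others 20.5 to 20.8), the lowest FAF1 library at 57.4 CPM (61.6 to 61.8) and the lowest RELB library at 33.0 CPM (36.1 to 36.7). In the combination the highest PCK2 library was at 39.1 CPM (34.9 to 35.5), the lowest PLK1 library at 44.6 CPM (72.3 to 75.9) and the highest MT-TA library at 0.104 CPM, a single count where the others had 0. The effect of OL9-119 on ATF3 differed with and without topotecan by a log2 interaction of -0.81 in edgeR. The cause of none of these was tested.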

How the results depend on the processing

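No single result changed sign where it was called. The share of tested genes called on adding OL9-119 to topotecan, 45 genes or 0.261%, became 0.544% (94 genes) with DESeq2, 0.543% (66 higher, 37 lower) with all 60 libraries, 0.0984% (17) with a minimum fold of 1.2 and 0.135% to 0.188% (24 to 33) with 1 library left out. Alternatives chosen after seeing the data gave 0.536% (85) for the 8 libraries without combination replicate 1, 0.114% (20) without both replicates numbered 1, and 0.791% (73 higher, 53 lower) for the 8 libraries with a replicate block. With the replicate block in the G6 fit it was 1.51% (260 genes, 129 higher and 131 lower, where the fit without the block had 28 and 17), against 5.32% (918, 388 higher and 530 lower, where it had 79 and 40) for OL9-119 without topotecan and 18.9% (3270, 1248 higher and 2022 lower) for topotecan. The replicate numbers were not taken as pairs, and the labels do not say whether they are. Between the combination and topotecan groups, correlations of same-numbered deviations were 0.15, 0.02, 0.03 and 0.27, and those of different numbers ran from -0.26 to 0.17. Other groups were not checked in this way, so these values do not settle whether the numbers are pairs. Combination replicates 1 and 4 correlated best with their own number, replicate 2 with topotecan replicate 1 and replicate 3 with topotecan replicate 4. With the block in the G6 fit all 45 calls were kept. OL9-119 without topotecan gave 1.68% (290) with DESeq2 and 0.394% to 1.05% (70 to 185) with 1 library left out, lowest without DMSO replicate 2 and highest without DMSO replicate 4. Topotecan gave 3.52% to 9.85% (620 to 1734), lowest without topotecan replicate 4 and highest without DMSO replicate 4. The interaction gave 0.0174% (3) with DESeq2, 0.00542% (2) with no low-count filter, 0.0232% (4) with the replicate block and 0.00562% to 0.0114% (1 to 2) with 1 library left out. The clone difference gave 0.00527% (1) with the replicate block nested in clone. The topotecan calls of 244 higher and 859 lower became 422 and 653 with library totals only, and 347 and 746 with upper quartile scaling (both added later). Without rRNAs the mitochondrial share passed (-0.689 points). The cause was not tested for any of these.

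Of the 45 genes 22 passed with each replicate left out and 16 under every alternative: CCN1, CHAC1, CTH, DDIT3, HERPUD1, HSPA8, MT-ND5, MT-ND6, MT-TA, MT-TP, MT-TQ, PCK2, SLC7A11, STC2, TFRC and TRIB3. Of 79 named genes that did not pass, 12 changed sign under some alternative. Depth limits ASNS, INHBE and the mitochondrial tRNAs, which have few counts.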
